A study of Homo sapiens with 9 samples.

Results

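The desmosome genes followed here are 10 genes chosen by name: the desmosomal cadherins DSG2, DSG3, DSC2 and DSC3, the plakin DSP, the armadillo proteins JUP, PKP1, PKP2 and PKP3, and the tetraspan protein PERP. All 10 were among the 62666 genes of the deposited table, and 9 of them were among the 17910 genes that passed the low-count filter. PKP1 was the exception. Desmosomes are spot-like junctions that fasten neighbouring epithelial cells to each other and to the keratin network inside each cell. Desmogleins and desmocollins bind across the gap between cells, plakoglobin (JUP) and the plakophilins (PKP) hold their tails, and desmoplakin (DSP) links that plaque to keratin filaments. In the mammary gland desmosomes join luminal to luminal and to basal cells, and the family members are used in different proportions in simple and stratified epithelia.

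Polyadenylated RNA was sequenced from 3 human breast epithelial lines of 1 lineage, with 3 libraries per line, and the lines stand for successive stages of breast cancer. MCF10A is an immortalised line that does not form tumours. MCF10AT1, its derivative with activated HRAS, serves as a premalignant model, and MCF10Ca1a is a malignant line of the same lineage grown out from a xenograft lesion. Each stage is therefore represented by 1 cultured line, and no library came from tissue. MCF10A and MCF10Ca1a were kept in 5% horse serum and MCF10AT1 in 2.5%, so serum and line cannot be told apart in comparisons with MCF10AT1. All lines shared a DMEM/F12 base that held EGF at 20 ng/mL, cholera toxin at 100 ng/mL, hydrocortisone at 500 ng/mL, insulin at 10 µg/mL, NaHCO3 at 14 mM and L-glutamine at 2 mM.

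Library totals of estimated counts ran from 62.9 to 69.5 M for MCF10A or MCF10AT1, whereas the MCF10Ca1a libraries held 32.9 to 35.2 M, and 15423 to 16638 genes had at least 10 counts. All 8 epithelial markers checked (EPCAM, CDH1, KRT5, KRT14, KRT8, KRT18, ITGB4 and LAMB3) were above 1 TPM (a transcript level scaled by length and library) in every library, with a summed level of 2139 to 3034 TPM in MCF10A, 3081 to 3440 in MCF10AT1 and 3470 to 3603 in MCF10Ca1a. Summed fibroblast markers were 3.59 to 3.73 TPM in MCF10A, 26.7 to 30.5 in MCF10AT1 and 0.109 to 0.533 in MCF10Ca1a. Nearly all of it was DCN in the first 2 lines, and LUM, COL3A1 and PDGFRB were at or near 0 in every library. Summed endothelial markers reached 15.6 to 20.8 TPM in MCF10Ca1a, nearly all PECAM1, with CDH5 and VWF at or near 0, and were at most 1.22 TPM elsewhere. Summed leukocyte markers were 7.58 to 9.41 TPM in MCF10A, 3.39 to 3.94 in MCF10AT1 and 0.178 to 0.281 in MCF10Ca1a, mostly CD14, with PTPRC at or near 0 and CD3E at 0. The part of these levels in the results below was not tested. The labels do not say whether the replicates came from separate cultures, so p-values measure only the spread between these libraries. MCF10A replicate 1 was the highest of the 3 MCF10A libraries for all 9 members tested, and for 46.7% of all genes tested, so a change without it is given where it alters a member's call or moves a called change by over 1.5 times.

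DSC3 had the largest change of the set and lost most of its RNA in MCF10Ca1a. PERP and DSC2 came next among the falls in MCF10Ca1a against MCF10A, and JUP rose most. Both desmocollins also make 2 splice forms through a short extra exon near the end of the gene. The exon brings an early stop codon, so that the longer form (a) keeps the cytoplasmic stretch that binds plakoglobin and the shorter form (b) lacks it. The sequences are shown because the results return to this exon. Both are exon 16 of 17 in GENCODE 29 on GRCh38, on the minus strand, at chr18:30994454-30994496 in transcript DSC3-202 and at chr18:31068299-31068344 in transcript DSC2-201. Capitals mark the coding bases before the stop codon, which is taa in both.
DSC3 exon: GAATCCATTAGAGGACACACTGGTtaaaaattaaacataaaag
DSC2 exon: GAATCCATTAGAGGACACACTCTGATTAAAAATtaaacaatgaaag
The 2 exons share their first 21 bases. The DSC3 exon is 43 bases long and codes for 24 bases before the stop, and the DSC2 exon is 46 bases long and codes for 33. DSC3 has 839 codons with the exon and 896 without, and DSC2 has 847 with it and 901 without.

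Of the 9 members tested, 8 passed the threshold between MCF10AT1 and MCF10A (edgeR's quasi-likelihood test, Benjamini-Hochberg adjusted p under 0.05), against 61.6% of all genes tested. DSG3, PKP2 and JUP were higher in MCF10AT1 and DSG2, DSC3, DSP, PKP3 and PERP were lower, which is 3 higher and 5 lower against 29.8% and 31.8% of all genes. Between MCF10Ca1a and MCF10AT1, 8 of 9 passed, against 78.4% of all genes: DSG2 and JUP were higher and DSG3, DSC2, DSC3, PKP2, PKP3 and PERP lower (38.0% and 40.3% of all genes), although DSG3 and PKP3 changed sign on TPM. Between MCF10Ca1a and MCF10A, 8 of 9 passed, against 80.9% of all genes: DSG3, PKP2 and JUP were higher and DSC2, DSC3, DSP, PKP3 and PERP lower (39.0% and 41.9%). The CPM ranges of the lines (counts relative to the library total, scaled by TMM) did not overlap for 8, 8 and 9 of the 9 members in these comparisons, against 65.4%, 81.9% and 81.5% of all genes. The 3 comparisons share libraries, so they are not independent of each other. Their shares of called members are read against these high backgrounds, and the sizes of the changes tell more than the counts.

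The sizes were mostly modest. The median log2 change of the 9 members was -0.24 in MCF10AT1 against MCF10A, where the median of all genes was -0.0038, then -0.27 in MCF10Ca1a against MCF10AT1 (all genes -0.044) and -0.26 in MCF10Ca1a against MCF10A (all genes -0.046). Regardless of sign, the median change was 0.40, 0.48 and 0.57 on the log2 scale in those comparisons, beside 0.38, 0.76 and 0.84 for all genes. No member was called with a change of at least 2-fold in MCF10AT1 against MCF10A, where 18.0% of all genes were. DSC3 alone was in MCF10Ca1a against MCF10AT1 (37.7% of all genes) and in MCF10Ca1a against MCF10A (42.9%). Scaling mattered at the malignant step: on TPM the median of all genes moved from -0.044 to 0.13 and the share of calls that were higher from 48.5% to 61.6%, while in MCF10AT1 against MCF10A that share went from 48.4% to 36.2%.

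**Figure D1:**
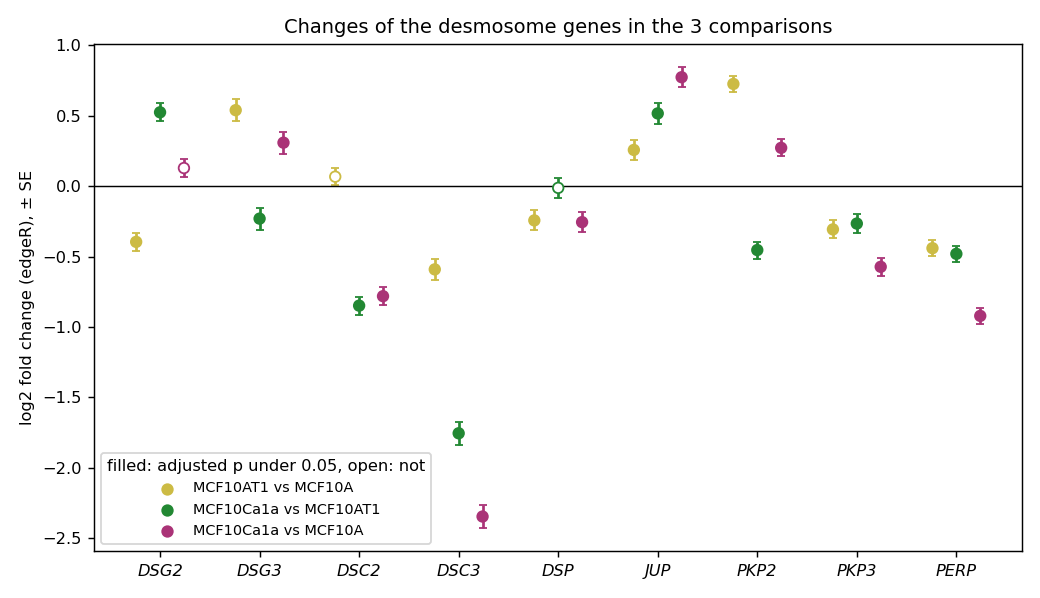
Log2 fold change (vertical axis, edgeR, bars are ± SE) of the 9 members tested in the 3 comparisons of lines; filled points passed the adjusted p threshold of 0.05 and open points did not. DSC3 lies far below the others at -1.75 and -2.35, and JUP is the only member above 0 in all 3; on TPM, DSG3, PKP3 and DSP change sign in MCF10Ca1a against MCF10AT1 and DSC2 in MCF10AT1 against MCF10A.

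DSC3 (ENSG00000134762, chr18:30990008-31042815) encodes the desmocollin typical of basal and stratified epithelium. Its CPM was 149, 131 and 116 in the MCF10A libraries, 86.9, 88.1 and 87.6 in MCF10AT1 and 24.9, 26.6 and 26.3 in MCF10Ca1a. The lines did not overlap, and the gap between MCF10AT1 and MCF10Ca1a was the wider one on the log2 scale. DSC3 fell by 0.59 on the log2 scale in MCF10AT1 against MCF10A (SE 0.0734, edgeR adjusted p = 9.98e-06). The further difference of MCF10Ca1a from MCF10AT1 was -1.75 (SE 0.0798, edgeR adjusted p = 1.21e-10), and MCF10Ca1a against MCF10A gave -2.35 (SE 0.0805, edgeR adjusted p = 4.90e-12). In bulk RNA, fewer cells expressing a gene and less RNA per cell cannot be told apart.

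DSC2 (ENSG00000134755, chr18:31058840-31102522), the widely expressed desmocollin, was lowest in MCF10Ca1a. The libraries gave 54.4, 49.3 and 46.2 CPM in MCF10A, 54.0, 52.3 and 50.7 in MCF10AT1, with 30.3, 28.8 and 28.2 in MCF10Ca1a. MCF10A and MCF10AT1 overlapped, and all MCF10Ca1a libraries lay below both. The log2 change in MCF10AT1 against MCF10A was 0.067 (SE 0.0604, edgeR adjusted p = 0.355), was 0.13 without MCF10A replicate 1 (edgeR adjusted p = 0.0237) and was -0.10 on log2(TPM + 1). DSC2 fell by 0.85 on the log2 scale in MCF10Ca1a against MCF10AT1 (SE 0.0637, edgeR adjusted p = 2.34e-08) and by 0.78 against MCF10A (SE 0.0637, edgeR adjusted p = 4.95e-08).

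DSG2 (ENSG00000046604, chr18:31498043-31549008) is the desmoglein found in nearly all desmosome-bearing tissues. Its CPM values were 526, 491 and 458 in MCF10A, 386, 386 and 349 in MCF10AT1, then 533, 538 and 541 in MCF10Ca1a. MCF10AT1 was the low line, and the MCF10Ca1a libraries lay just above the highest MCF10A library. DSG2 fell by 0.40 on the log2 scale in MCF10AT1 against MCF10A (SE 0.0639, edgeR adjusted p = 1.10e-04) and rose by 0.52 in MCF10Ca1a against MCF10AT1 (SE 0.0641, edgeR adjusted p = 4.07e-06). MCF10Ca1a against MCF10A gave 0.13 (SE 0.0639, edgeR adjusted p = 0.0790), and without MCF10A replicate 1 it gave 0.17 (edgeR adjusted p = 0.00860). This change, not called here, was called under 7 of 21 alternatives.

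DSG3 (ENSG00000134757, chr18:31447795-31478702) encodes the desmoglein of basal layers and the target of autoantibodies in pemphigus vulgaris. It measured 140, 121 and 108 CPM in MCF10A, 184, 183 and 170 in MCF10AT1, with 152, 154 and 151 in MCF10Ca1a. MCF10AT1, the low line for DSG2, was the high line for DSG3, and no lines overlapped. DSG3 rose by 0.54 on the log2 scale in MCF10AT1 against MCF10A (SE 0.0775, edgeR adjusted p = 3.89e-05), and MCF10Ca1a stayed 0.31 above MCF10A (SE 0.0780, edgeR adjusted p = 0.00237). It fell by 0.23 in MCF10Ca1a against MCF10AT1 (SE 0.0778, edgeR adjusted p = 0.0149), but on log2(TPM + 1) the value was 0.034, and with each library centred on its median it was -0.16 (limma adjusted p = 0.0876).

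DSP (ENSG00000096696, chr6:7541575-7586717), the link to keratin, had the smallest change of the members tested in MCF10Ca1a against MCF10AT1 in CPM. It measured 451, 391 and 379 CPM in MCF10A, 333, 329 and 368 in MCF10AT1, then 349, 330 and 343 in MCF10Ca1a. All MCF10A libraries lay above those of the other 2 lines, which overlapped. DSP fell by 0.24 on the log2 scale in MCF10AT1 against MCF10A (SE 0.0714, edgeR adjusted p = 0.00922) and by 0.26 in MCF10Ca1a against MCF10A (SE 0.0716, edgeR adjusted p = 0.00474). The first was -0.16 without MCF10A replicate 1 (edgeR adjusted p = 0.0154), and the second was -0.11 on log2(TPM + 1) and no longer called (limma adjusted p = 0.309). MCF10Ca1a against MCF10AT1 gave -0.012 (SE 0.0716, edgeR adjusted p = 0.884), and 0.25 on log2(TPM + 1) (limma adjusted p = 0.0353).

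JUP (ENSG00000173801, chr17:41754604-41786931) encodes plakoglobin, which sits in adherens junctions as well as desmosomes. Its libraries measured 203, 171 and 164 CPM in MCF10A, 214, 217 and 212 in MCF10AT1, with 306, 296 and 317 in MCF10Ca1a. The lines did not overlap and MCF10Ca1a was highest. JUP rose by 0.26 on the log2 scale in MCF10AT1 against MCF10A (SE 0.0719, edgeR adjusted p = 0.00693), a call that was lost on log2(TPM + 1), where the change was 0.14 (limma adjusted p = 0.270). It rose by 0.52 in MCF10Ca1a against MCF10AT1 (SE 0.0721, edgeR adjusted p = 1.54e-05) and by 0.77 against MCF10A (SE 0.0724, edgeR adjusted p = 2.21e-07). The rise against MCF10AT1 was 0.79 on log2(TPM + 1) (limma adjusted p = 5.22e-05).

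PKP2 (ENSG00000057294, chr12:32790745-32896840), the plakophilin of simple epithelia and heart, measured 80.9, 74.7 and 74.3 CPM in MCF10A, 132, 131 and 117 in MCF10AT1, then 89.5, 94.8 and 93.4 in MCF10Ca1a. MCF10AT1 was the high line, as for DSG3, and no lines overlapped. PKP2 rose by 0.73 on the log2 scale in MCF10AT1 against MCF10A (SE 0.0596, edgeR adjusted p = 1.64e-07), the largest rise of a member in that comparison. It fell by 0.45 in MCF10Ca1a against MCF10AT1 (SE 0.0600, edgeR adjusted p = 8.97e-06) and stayed 0.27 above MCF10A (SE 0.0603, edgeR adjusted p = 8.90e-04). On log2(TPM + 1) the change of PKP2 in MCF10Ca1a against MCF10AT1 was -0.23 (limma adjusted p = 0.0470), a call lost with no filter on low values (limma adjusted p = 0.0979).

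PKP3 (ENSG00000184363, chr11:392614-404908), a plakophilin of most epithelial desmosomes, gave 138, 121 and 115 CPM in MCF10A, 98.7, 103 and 101 in MCF10AT1, with 87.0, 81.2 and 83.6 in MCF10Ca1a. No lines overlapped, and MCF10A was highest. PKP3 fell by 0.31 on the log2 scale in MCF10AT1 against MCF10A (SE 0.0637, edgeR adjusted p = 8.70e-04) and by 0.57 in MCF10Ca1a against MCF10A (SE 0.0648, edgeR adjusted p = 1.67e-06), the latter -0.34 on log2(TPM + 1) (limma adjusted p = 0.00428). It fell by 0.27 in MCF10Ca1a against MCF10AT1 (SE 0.0648, edgeR adjusted p = 0.00191), whereas log2(TPM + 1) gave 0.058, and -0.14 once each library was centred on its median (limma adjusted p = 0.0482). PKP1 (ENSG00000081277, chr1:201283452-201332993), the plakophilin of suprabasal skin, was close to absent: its rounded counts were 10, 7 and 5 in MCF10A, 1, 0 and 4 in MCF10AT1, then 2, 7 and 4 in MCF10Ca1a. It did not pass the filter, and no fold is given at this depth. Where an alternative let it in, edgeR called PKP1 lower in MCF10AT1 against MCF10A: with no filter (adjusted p = 0.0229), or without MCF10AT1 replicate 3 (0.01003), MCF10Ca1a replicate 1 (0.0364) or MCF10Ca1a replicate 3 (0.0461). It was called higher in MCF10Ca1a against MCF10AT1 with no filter (edgeR adjusted p = 0.0219) and without the first and second of these libraries (0.00723 and 0.0196), but not without the third (0.0529). On log2(TPM + 1) with no filter neither was called (limma adjusted p = 0.716 and 0.111).

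PERP (ENSG00000112378, chr6:138088505-138107511) encodes a p53 and p63 target needed for desmosome assembly in skin. CPM was 601, 551 and 535 in MCF10A, 413, 432 and 398 in MCF10AT1, with 291, 300 and 300 in MCF10Ca1a. The lines did not overlap, with MCF10A highest and MCF10Ca1a lowest. PERP fell by 0.44 on the log2 scale in MCF10AT1 against MCF10A (SE 0.0588, edgeR adjusted p = 1.97e-05), by 0.48 in MCF10Ca1a against MCF10AT1 (SE 0.0591, edgeR adjusted p = 4.30e-06) and by 0.92 in MCF10Ca1a against MCF10A (SE 0.0594, edgeR adjusted p = 3.76e-09). MCF10Ca1a against MCF10AT1 gave -0.21 on log2(TPM + 1) (limma adjusted p = 0.0343), and this call too was lost with no filter (limma adjusted p = 0.0759).

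**Figure D2:**
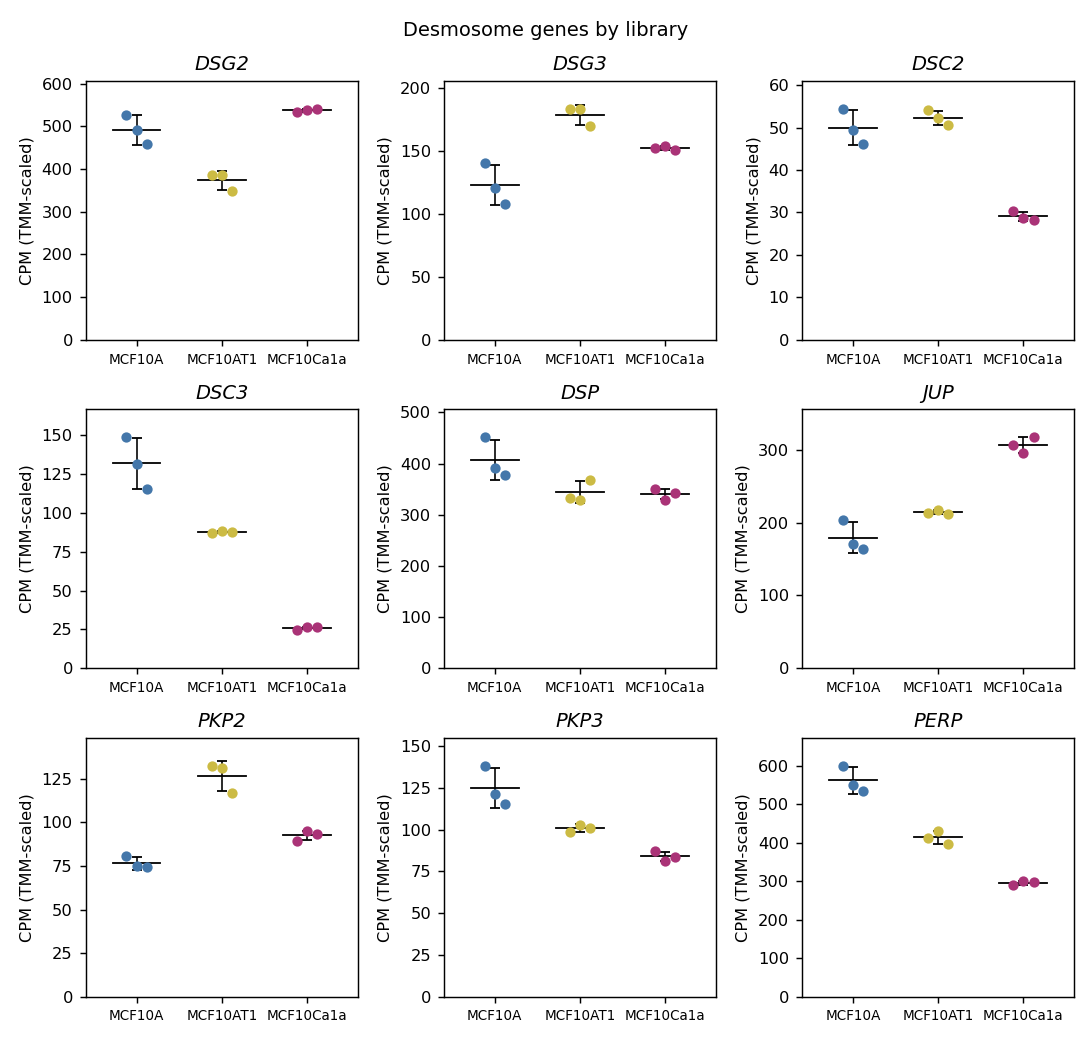
CPM (vertical axes, from 0) of the 9 members tested in each library of the 3 lines; points are replicates 1 to 3 from left to right, the line is the mean and the bar ± SD. DSC3, PKP3 and PERP are highest in MCF10A and lowest in MCF10Ca1a, JUP is highest in MCF10Ca1a, and DSG3 and PKP2 are highest in MCF10AT1; on TPM the mean of PKP3 is lowest in MCF10AT1 and that of DSG3 highest in MCF10Ca1a.

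Levels can be compared between genes in TPM, which counts per length. In MCF10A the order by mean was PERP (289 TPM), DSG2 (140), PKP3 (70.3), JUP (63.0), DSP (50.9), PKP2 (35.4), DSG3 (34.6), DSC3 (32.7), DSC2 (17.0) and PKP1 (0.0239). There the ranges over libraries of PKP3, JUP and DSP overlapped from one gene to the next, as did those of PKP2, DSG3 and DSC3. Within each MCF10A library, though, PKP3 was above JUP and JUP above DSP. PKP2 and DSG3 were both above DSC3 in each, and only PKP2 and DSG3 changed places. In MCF10AT1 the means were PERP 192 TPM, DSG2 97.8, JUP 69.0, PKP2 54.3, PKP3 52.9, DSG3 45.6, DSP 39.3, DSC3 19.6, DSC2 15.7 and PKP1 0.00501, and PKP2 and PKP3 were the only neighbours to overlap. In MCF10Ca1a DSG2 (166 TPM) and PERP (166) overlapped at the top, followed by JUP (120), PKP3 (55.1), the overlapping DSP (46.8), DSG3 (46.7) and PKP2 (45.9), then DSC2 (10.2), DSC3 (6.96) and PKP1 (0.0642). JUP was the third member by mean in both MCF10AT1 and MCF10Ca1a, and DSC3 ranked below DSC2 only in MCF10Ca1a.

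Ratios of members within a library do not depend on how libraries are scaled to each other. The summed TPM of DSG2 and DSG3 over that of DSC2 and DSC3 was 3.44, 3.50 and 3.65 in the MCF10A libraries, 4.14, 4.19 and 3.87 in MCF10AT1 and 12.2, 12.5 and 12.5 in MCF10Ca1a. No lines overlapped, and the step to MCF10Ca1a was by far the larger one. The means were 3.53 ± 0.106 (SD, n = 3), 4.07 ± 0.168 and 12.4 ± 0.198. The summed level of the desmogleins was 175 ± 24.5 TPM in MCF10A, 143 ± 9.72 in MCF10AT1 and 213 ± 1.13 in MCF10Ca1a (SD, n = 3), and that of the desmocollins was 49.7 ± 8.33, 35.2 ± 1.03 and 17.2 ± 0.358. Among the desmocollins, DSC2 made up 34.2% ± 0.802 in MCF10A, 44.5% ± 0.886 in MCF10AT1 and 59.4% ± 2.01 in MCF10Ca1a (SD, n = 3), with no overlap.

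Other pairs are described by their means. DSG2 made up 80.3% ± 1.01 of desmoglein TPM in MCF10A, 68.2% ± 0.326 in MCF10AT1 and 78.1% ± 0.225 in MCF10Ca1a (SD, n = 3). PKP2 was the minor partner of PKP3 in MCF10A and close to equal in the other lines, with 33.5% ± 1.39, 50.6% ± 2.41 and 45.5% ± 1.89 of their summed TPM, and that sum itself was 106 ± 13.9, 107 ± 5.57 and 101 ± 0.767 TPM. JUP over DSP was 1.23 ± 0.0404, 1.76 ± 0.122 and 2.57 ± 0.0962, and JUP over PERP was 0.217 ± 0.0146, 0.360 ± 0.0135 and 0.725 ± 0.00745 (SD, n = 3). The 10 genes together summed to 733 ± 100.3 TPM in MCF10A, where single libraries ran from 646 to 843, to 586 ± 25.4 in MCF10AT1 and to 664 ± 1.01 in MCF10Ca1a. These ratios and sums are descriptions and were not tested.

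**Figure D3:**
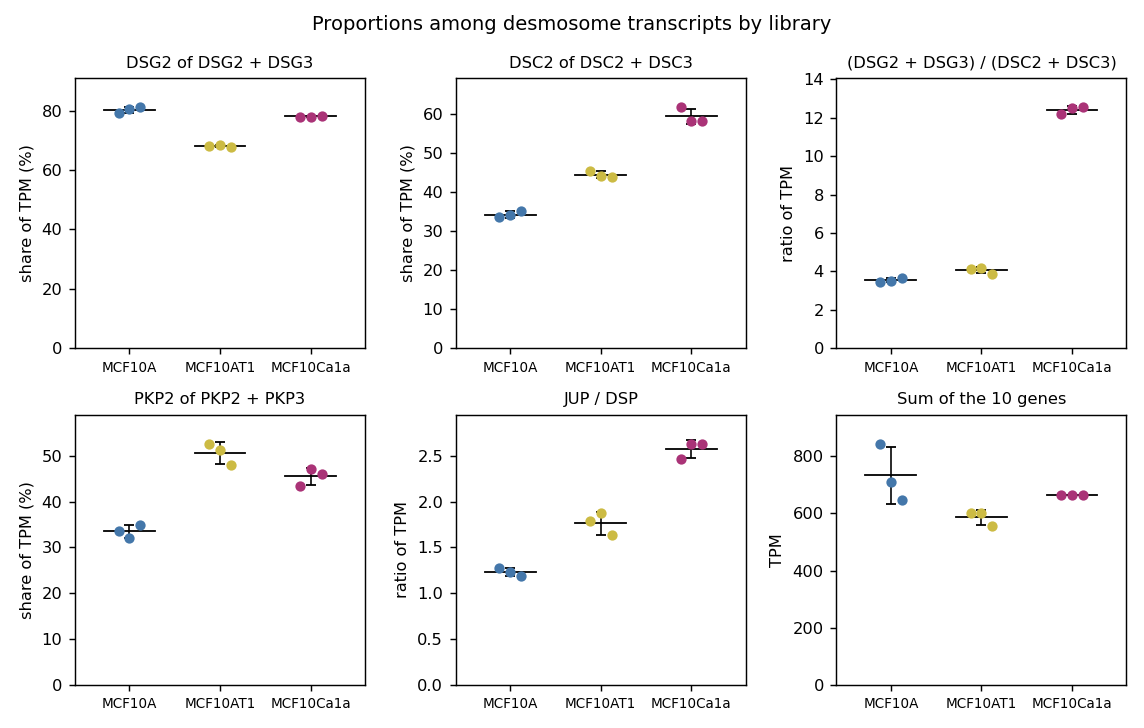
Shares (%), ratios and the sum (TPM) of desmosome transcripts in each library of the 3 lines; points are replicates 1 to 3 from left to right, the line is the mean and the bar ± SD, and every axis starts at 0. The ratio of desmogleins to desmocollins is 3.53 and 4.07 in MCF10A and MCF10AT1 and 12.4 in MCF10Ca1a, while the sum of the 10 genes overlaps between MCF10A and MCF10Ca1a.

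The transcript tables allow the splice forms to be followed. Usage, the log2 of a transcript's count over that of its gene's other transcripts, could be tested for 7 members. DSG3 and PERP have 1 listed transcript each, and PKP1 was too low. No member passed between MCF10AT1 and MCF10A (limma with a Simes p per gene, adjusted p under 0.05), against 9.27% of the 11198 genes tested. Before adjustment 1 member, PKP3, lay under the same threshold (limma adjusted p = 0.169). Between MCF10Ca1a and MCF10AT1, DSC3 and PKP2 passed (2 of 7, against 44.1% of all genes), and between MCF10Ca1a and MCF10A, DSC2, DSC3, PKP2 and PKP3 did (4 of 7, against 51.5%).

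DSC3-202, the form with the extra exon shown above, made up 63.1%, 68.8% and 62.6% of DSC3 TPM in MCF10A, 67.3%, 65.6% and 70.5% in MCF10AT1, then 75.8%, 75.7% and 75.0% in MCF10Ca1a. The first 2 lines overlapped, and all MCF10Ca1a libraries lay above them. The rest was DSC3-201, the form without the exon. The log2 ratio of DSC3-202 to DSC3-201 was 0.74 higher in MCF10Ca1a than in MCF10A (SE 0.140, limma, adjusted p of the gene = 0.00435) and 0.55 higher than in MCF10AT1 (SE 0.140, limma, adjusted p of the gene = 0.0185). The call against MCF10AT1 was lost without MCF10AT1 replicate 1 (limma adjusted p = 0.0562) or 2 (limma adjusted p = 0.0623) and with the replicate number as a block (0.0539), while the call against MCF10A was kept without each library in turn and with the block. Both forms fell in level: DSC3-202 averaged 5.26 TPM and DSC3-201 1.71 TPM in MCF10Ca1a, beside 21.2 and 11.5 TPM in MCF10A.

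DSC2-201, the DSC2 form with its own extra exon, was the minor form, at 7.93%, 7.94% and 9.11% of DSC2 TPM in MCF10A, 9.67%, 10.2% and 9.27% in MCF10AT1, with 10.7%, 12.6% and 12.1% in MCF10Ca1a. The lines did not overlap. Its log2 ratio to the rest of DSC2 was 0.56 higher in MCF10Ca1a than in MCF10A (SE 0.119, limma, adjusted p of the gene = 0.0148), a call that was lost without MCF10A replicate 2 (limma adjusted p = 0.0571). DSC2 usage was not called in MCF10Ca1a against MCF10AT1 (limma adjusted p = 0.0818), but was with a minimum mean transcript count of 50 (0.0385). Most DSC2 TPM, 87.9% to 89.8% by line, was assigned to ENST00000682357, which GENCODE 29 does not hold. The lead of ENST00000682357 was smaller in counts, at 2718 beside 636 for DSC2-201 in MCF10A replicate 1. The annotated a form DSC2-202 was listed at 0. Which tail ENST00000682357 encodes was not examined here. The transcripts of both genes also differ outside the exon, so these shares are of whole transcript models and not of exon reads.

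The proportion of the 2 main desmoplakin forms showed no called change. DSP-201, the long rod form I of 2871 codons, made up 66.9% ± 0.542 of DSP TPM in MCF10A, 64.8% ± 1.39 in MCF10AT1 and 65.6% ± 2.11 in MCF10Ca1a (SD, n = 3). DSP-202, the form II of 2272 codons with a shorter rod, made up 31.8% ± 0.631, 33.4% ± 1.43 and 32.7% ± 2.04. The usage of DSP was not called in any comparison (limma, adjusted p from 0.705 to 0.809). The 2 main JUP transcripts, JUP-203 and JUP-201, both code for 745 codons, and JUP was not called either (limma, adjusted p from 0.119 to 0.824).

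PKP3-201, the full-length model of 797 codons, fell from 80.0% ± 3.01 of PKP3 TPM in MCF10A to 71.6% ± 2.33 in MCF10Ca1a (SD, n = 3), with 74.4% ± 0.767 in MCF10AT1. TPM gives short models more weight than counts do. In counts PKP3-201 held 8615 of 8862 in MCF10A replicate 1 and 2893 of 3114 in MCF10Ca1a replicate 1. Its log2 ratio to the rest, tested on counts, was -0.94 in MCF10Ca1a against MCF10A (SE 0.191, limma, adjusted p of the gene = 0.0246). That call was lost without MCF10A replicate 2 (limma adjusted p = 0.0873) or without MCF10Ca1a replicate 1 (0.0831), 2 (0.0536) or 3 (0.0718), and with the replicate number as a block (0.0628). The other PKP3 models are short or retain introns, and several were at 0 in some libraries of a line. PKP3-206, a coding model of 156 codons singled out after its values were seen, was listed at 0 in all 3 MCF10A libraries, made up 9.46%, 9.31% and 10.3% of PKP3 TPM in MCF10AT1, and was 0, 0 and 14.9% in MCF10Ca1a. In MCF10AT1 replicate 1 it held 149 of the 6582 PKP3 counts. PKP3 usage, not called in MCF10AT1 against MCF10A, was called there without MCF10Ca1a replicate 3 (limma adjusted p = 2.82e-04) or MCF10AT1 replicate 2 (0.0341). Leaving out either library also gave a PKP3 call in MCF10Ca1a against MCF10AT1 (limma adjusted p = 1.76e-04 and 0.0104). PKP2-202, the 837-codon model, made up 55.8% ± 2.57, 54.4% ± 2.59 and 52.8% ± 3.21 of PKP2 TPM (SD, n = 3). The PKP2 calls came from ENST00000700564, singled out after its values were seen, which was 0.352% ± 0.112 of PKP2 in MCF10A, 0.789% ± 0.191 in MCF10AT1 and 4.71% ± 0.730 in MCF10Ca1a. ENST00000700557 ran from 0 to 33.3% among the MCF10A libraries alone, so the split between the other PKP2 models is uncertain.

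**Figure D4:**
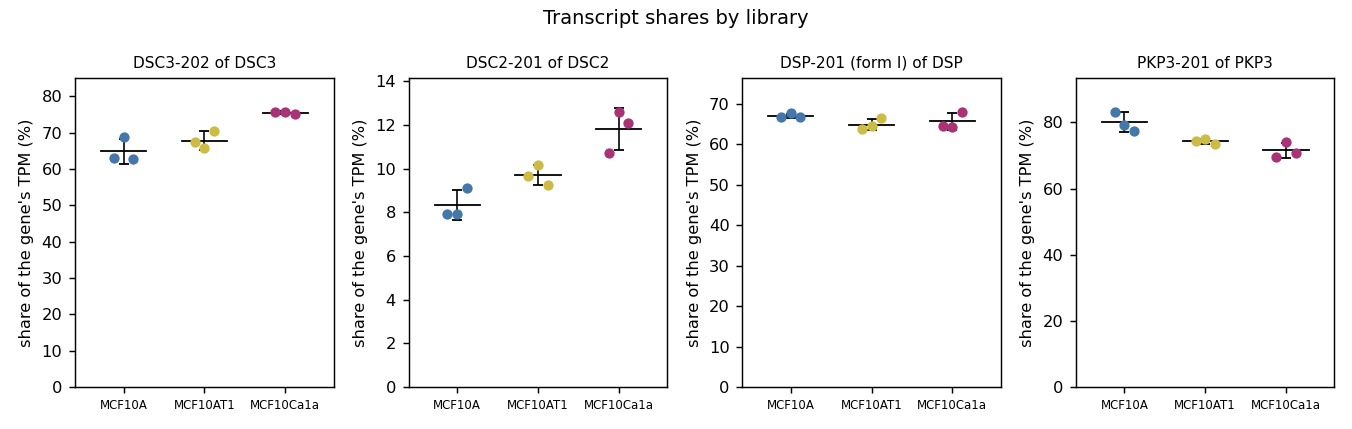
Share of the gene's TPM (%, axes from 0) taken by DSC3-202 and DSC2-201, the b form models, by form I of DSP and by PKP3-201 in each library; points are replicates 1 to 3 from left to right, the line is the mean and the bar ± SD. DSC3-202 and DSC2-201 are highest in MCF10Ca1a (means 75.5% and 11.8%), and the DSP share lies between 63.6% and 68.0% in every library.

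The 4 cadherins lie in the desmocollin and desmoglein cluster at chr18:30990008-31549008, which spans 559 kb in the order DSC3, DSC2, DSC1, DSG1, DSG4, DSG3 and DSG2. The middle genes DSC1, DSG1 and DSG4, which serve skin and hair, had at most 4 counts in any library. Within the cluster the change in MCF10Ca1a against MCF10A went from -2.35 at DSC3 and -0.78 at DSC2 to 0.31 at DSG3 and 0.13 at DSG2, the last not called. Of 52 annotated genes in the window reaching 1 Mb beyond each end, 8 outside the cluster were tested, all on the DSG2 side. In MCF10Ca1a against MCF10A 6 of them were lower and 0 higher (by edgeR, against 41.9% and 39.0% of all genes), with a median log2 change of -1.37. B4GALT6, a lactosylceramide synthase gene, fell by 2.48 on the log2 scale (SE 0.0763, edgeR adjusted p = 1.64e-12), and RNF125, a ubiquitin ligase gene, fell by 2.48 (SE 0.119, edgeR adjusted p = 1.51e-10; -1.50 on log2(TPM + 1)). The antisense genes ENSG00000259985 and ENSG00000263823 gave -3.31 (edgeR adjusted p = 4.82e-07) and -2.09 (edgeR adjusted p = 0.00302) at 1.06 and 0.291 CPM on average in MCF10A. They overlap B4GALT6 and TRAPPC8, and whether strand was used in assigning reads is not given in the sources used here. DSG3 and DSG2, between DSC3 and these neighbours, were not lower.

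**Figure D5:**
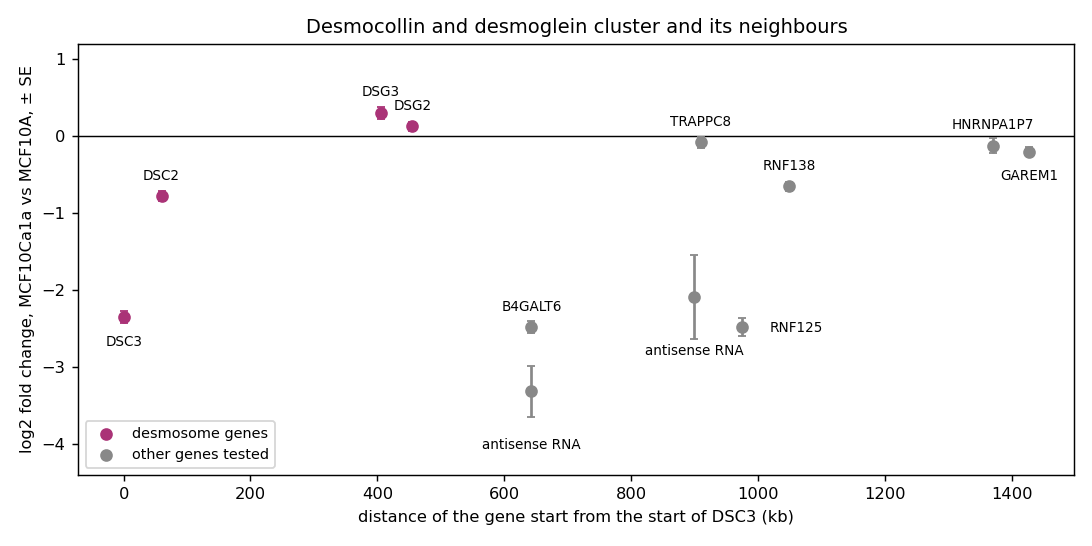
Log2 fold change of MCF10Ca1a against MCF10A (vertical axis, ± SE) of the genes tested in and around the cluster, against the distance of the gene's start from that of DSC3 (kb). DSC3 and DSC2 lie below 0 at -2.35 and -0.78, DSG3 and DSG2 lie slightly above 0, and 6 of the 8 neighbours were called lower.

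Promoter sequences were available for 8 of the 10 members in the RefSeq table (GRCh38.p14, 250 bases before to 50 after each start), as 10 windows. PKP2 and PKP3 had no entry. The E-box CACCTG, the core that SNAI and ZEB repressors bind, was searched on both strands and found in 4 of the 10 windows, those of DSP, DSC2, DSG2 and JUP, beside 20.6% of 35116 promoters. It was not in the window of DSC3, the member that fell most, nor in that of PERP, and this says only that these letters are absent there. The matches in JUP, and a further match each in DSP and DSG2, had annotated exon bases in their windows and are not printed. The windows around the other 3 matches lay wholly before the start and outside annotated exons, and these are printed. They lie at chr6:7541473-7541518 (plus strand, match 178 bases before the DSP start), chr18:31102552-31102597 (minus strand, 156 before the DSC2 start) and chr18:31497927-31497970 (plus strand, 232 before the DSG2 start), and capitals mark the match, which reads CAGGTG on the strand shown.
DSP: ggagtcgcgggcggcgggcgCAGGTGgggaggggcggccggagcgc
DSC2: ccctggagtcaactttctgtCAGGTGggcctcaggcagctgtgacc
DSG2: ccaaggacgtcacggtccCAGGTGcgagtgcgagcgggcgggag
The AP-1 motif TGANTCA was in 7.71% of promoters and in 1 member window, that of PERP, and the grainyhead motif AACCNGTT was in 1.73% and in 0 member windows. These matches are descriptions of sequence, and no binding was measured.

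Related genes were read from lists of connected structures. PKP4, a relative of the plakophilins found mainly in adherens junctions, had rounded counts of 6524, 6088 and 6184 (MCF10A), 5165, 5114 and 4784 (MCF10AT1) and 1743, 1555 and 1734 (MCF10Ca1a). Scaled to library totals, it fell by 0.30 on the log2 scale in MCF10AT1 against MCF10A (SE 0.0547, edgeR adjusted p = 3.47e-04) and by 0.98 in MCF10Ca1a against MCF10A (SE 0.0567, edgeR adjusted p = 1.11e-09). Among the 5 plakins other than DSP, which also tie filaments to junctions, 5 were higher and 0 lower in MCF10AT1 against MCF10A, 4 and 1 in MCF10Ca1a against MCF10AT1, and 4 and 1 in MCF10Ca1a against MCF10A, with medians of 0.33, 0.55 and 0.84. PPL (periplakin) rose most, by 4.44 in MCF10Ca1a against MCF10A (edgeR adjusted p = 9.15e-14), and DST (dystonin) fell by 0.76 (SE 0.0587, edgeR adjusted p = 2.86e-08).

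Among 11 keratins, the filaments that desmosomes anchor, 10 were higher and 1 lower in MCF10AT1 against MCF10A, 5 and 5 in MCF10Ca1a against MCF10AT1 and 7 and 3 in MCF10Ca1a against MCF10A, with medians of 0.95, 0.035 and 1.34. KRT19, a luminal keratin, rose by 6.98 in MCF10Ca1a against MCF10A (SE 0.259, edgeR adjusted p = 1.08e-11), and KRT14, a basal keratin, fell by 5.65 (SE 0.0889, edgeR adjusted p = 4.18e-15). KRT19 averaged only 7.28 CPM in MCF10Ca1a, and its rise was 2.98 on log2(TPM + 1). Other keratins did not all follow these: of the basal ones KRT5 was lower, at -1.89, but KRT15 and KRT17 were higher, at 3.52 and 1.34, and of the luminal ones KRT8 and KRT18 were higher, at 1.85 and 1.30, while KRT7 gave -0.031 (edgeR adjusted p = 0.661). Of 11 adherens junction genes, 1 was higher and 3 lower in MCF10AT1 against MCF10A, 6 and 2 in MCF10Ca1a against MCF10AT1 and 6 and 3 in MCF10Ca1a against MCF10A, with medians of -0.011, 0.43 and 0.38. CDH1 (E-cadherin) rose by 2.36 in MCF10Ca1a against MCF10A (SE 0.0970, edgeR adjusted p = 2.90e-11), and CDH2 (N-cadherin) fell by 1.48 (SE 0.128, edgeR adjusted p = 9.54e-08).

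Of 15 epithelial and mesenchymal transition factors, 8 were higher and 6 lower in MCF10AT1 against MCF10A, 8 and 7 in MCF10Ca1a against MCF10AT1 and 8 and 5 in MCF10Ca1a against MCF10A, with medians of 0.43, 0.38 and 0.14. GRHL2, a grainyhead factor of epithelial junction genes, had 0 counts in every MCF10A library and averaged 27.2 CPM in MCF10AT1 and 14.9 CPM in MCF10Ca1a, at least 601-fold and at least 328-fold higher against a floor of 3 counts per MCF10A library. GRHL3, its relative in skin, fell by 3.25 on the log2 scale in MCF10Ca1a against MCF10A (SE 0.191, edgeR adjusted p = 1.37e-09), and the change was -1.07 on log2(TPM + 1). The repressors of the E-box named above went both ways in that comparison: SNAI1 was higher, at 3.75, and SNAI2, ZEB1 and ZEB2 were lower, at -1.06, -2.83 and -1.53, as was the mesenchymal factor TWIST1, at -1.96 (edgeR adjusted p from 2.97e-11 to 1.09e-07). On log2(TPM + 1) ZEB1 and ZEB2 gave -1.23 and -0.42. Of 8 proteases and kinases that act on desmosomes, 5 were higher and 3 lower in MCF10AT1 against MCF10A, 2 and 2 in MCF10Ca1a against MCF10AT1 and 5 and 3 in MCF10Ca1a against MCF10A, with medians of 0.29, 0.0077 and 0.37. KLK5, a kallikrein of skin shedding, rose by 5.16 in MCF10Ca1a against MCF10A (SE 0.134, edgeR adjusted p = 3.38e-13) and by 2.95 on log2(TPM + 1), while its relative KLK7 had 0 counts in MCF10Ca1a, at least 17.7-fold lower than its 1.52 CPM in MCF10A by the same floor. The backgrounds given above apply to these counts.

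Genes with the profiles nearest to the 3 most variable members were named by the root mean square distance of log2(CPM + 0.01), centred on each gene's mean, over the 9 libraries and 12612 genes. For DSC3 they were LRRC45 (0.0655), TACC3 (0.0722) and BUB1B (0.0731), for PERP they were CLASP2 (0.0390), TASOR (0.0426) and COA7 (0.0437), and for DSC2 they were AEN (0.0373), MFSD14B (0.0394) and NUP205 (0.0462). The distances describe these libraries only.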

How the data were processed

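RNA of 9 libraries was analysed, 3 per line, as the labels group them. The authors deposited estimated counts per gene and per transcript, 2 scaled versions of the gene counts, and TPM per gene and per transcript. Salmon and hg38 are named in the submitters' processing notes, and the Salmon version and the annotation are not given in the sources used here. Estimated counts were rounded. Genes that passed filterByExpr by line (minimum count 10, minimum total 15) were tested with edgeR 4.0.16 (quasi-likelihood, TMM, all 9 libraries in 1 fit) in R 4.3.3, with Benjamini-Hochberg adjustment over all 17910 genes. CPM uses TMM-scaled totals. Usage was tested with limma 3.58.1 on log2((transcript + 0.5)/(rest + 0.5)), for transcripts with a mean count of at least 10. The uncertainty of assigning reads to transcripts was not used. Floors of 3 counts cover counting error only.

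The members and lists were chosen with earlier results of these data known. All members and the 4 other genes of their families are named, and of each list the gene that rose and the gene that fell most in MCF10Ca1a against MCF10A. The other keratins named, and SNAI1, SNAI2, ZEB1, ZEB2 and TWIST1, were added outside this rule. Neighbours are named where the lines do not overlap and the change is at least 2-fold. Positions come from GENCODE 29, which matched 58227 gene identifiers (92.9%). On simulated data for MCF10AT1 against MCF10A, edgeR recovered 39 of 67 genes changed 1.5-fold, 52 of 67 at 2-fold and 65 of 66 at 4-fold among 17411 genes, with 8 false calls. Only 200 genes were changed there, a far smaller share than was called in the real comparisons, so these rates need not hold here. For usage, a gene's 2 main transcripts were swapped under an assumed spread, and 156 of 200 genes were recovered with 11 false calls. Partial shifts in share, such as those of the members, and errors in assigning reads were not simulated. Alternatives included DESeq2 1.42.0, limma on TPM, other filters and each library left out.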

Additional observations from a re-analysis of the deposited data

How the results depend on the processing

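Of 567 values for the members (27 changes under 21 alternatives), 510 kept their direction and side of the threshold, 31 lost the call, 8 gained it and 18 changed sign. The 243 values that left out 1 library each held 239 of the first kind. Requiring a change over 1 on the log2 scale (glmTreat) left 0 members called in MCF10AT1 against MCF10A and 1, DSC3, in each comparison with MCF10Ca1a. With log2(TPM + 1) and no filter, 4 members were called in MCF10Ca1a against MCF10AT1, and 7 in each of the 2 other comparisons. In that comparison TPM gave DSG3 0.0342 (0.0349 with a pseudocount of 0.1 and 0.0342 with no filter), PKP3 0.0580 (0.0590 and 0.0580) and DSP 0.25 (0.25 and 0.25). DSC2 in MCF10AT1 against MCF10A was -0.10 (-0.11 and -0.10). DSP in MCF10Ca1a against MCF10AT1 was also above 0 with DESeq2 size factors (0.0346), the DESeq2 Wald test (0.0346), only the 2 lines compared (0.00250) and centred TPM (0.0519), and ran from -0.0554 to 0.0258 with 1 library left out, above 0 without MCF10AT1 replicate 3 (0.0258) or MCF10Ca1a replicate 2 (0.00782). Centring TPM on each library's median, chosen after seeing the data, gave 8, 7 and 9 members called. DSG2 in MCF10Ca1a against MCF10A was called under 7 of 21 alternatives: the DESeq2 Wald test (0.17, adjusted p = 0.0112), DESeq2 size factors (edgeR adjusted p = 0.0302), only the 2 lines compared (0.0317), log2(TPM + 1) (0.25, limma adjusted p = 0.0215), log2(TPM + 0.1) (0.0202), centred TPM (0.0175) and without MCF10A replicate 1 (edgeR adjusted p = 0.00860). With the replicate number as a block, 8, 8 and 8 members were called. Same-numbered libraries deviated with correlations from -0.136 to 0.160 over genes, and differently numbered ones from -0.178 to 0.164. The labels do not say whether same-numbered libraries were handled together, and with 3 libraries per line these values cannot decide it. In usage, the block left 1 member called in MCF10Ca1a against MCF10AT1 (PKP2, with DSC3 lost at limma adjusted p = 0.0539) and 3 in MCF10Ca1a against MCF10A (DSC2, DSC3 and PKP2, with PKP3 lost at 0.0628). With 1 library left out, usage calls ran from 0 to 1 in MCF10AT1 against MCF10A, from 1 to 3 in MCF10Ca1a against MCF10AT1 and from 2 to 4 in MCF10Ca1a against MCF10A. The cause of these differences was not tested. PKP1 passed the filter only under some alternatives, and its counts of at most 10 in any library limit its calls.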
